A study of Mus musculus with 6 samples.

Results

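The 8 genes described here are chemokines and receptors of inflammatory signals: the CC chemokines Ccl2, Ccl7, Ccl9 and Ccl11, the CXC chemokines Cxcl1 and Cxcl12, the interleukin-33 receptor gene Il1rl1 and the scavenger receptor gene Olr1. They were taken as a named list, and some of them had been chosen by measured values, namely the difference in their RNA level between cells labelled Phc1-KO and wild-type embryonic stem cells. That comparison is therefore a description for these genes, with no test, and the test of interest is neural progenitor cells against stem cells, which uses the same stem cell libraries. All 8 were found by symbol among 37620 genes counted in 6 libraries, and all 8 passed the filter on low counts. For Ccl11 and Olr1, which held at most 12 and 5 counts in a stem cell library, the passing counts lay in the other groups.

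The study measured RNA in 3 groups of mouse cells of the J1 background, with 2 libraries each, which the labels call biological replicates. Wild-type J1 embryonic stem cells (ESC) were kept with LIF, a cytokine that maintains self-renewal, and fetal bovine serum on mitomycin-C-treated embryonic fibroblast feeders, and the feeders were depleted before use. Wild-type neural progenitor cells (NPC) had been differentiated from J1 ESC in culture. The last group has the genotype Phc1-/-, is derived from J1 ESC and is called Phc1-KO here. Its title and the study design call it ESC, while its cell type entry reads NPC. Phc1 encodes a Polyhomeotic subunit of Polycomb repressive complex 1, which keeps developmental genes silent. Whether the Phc1-KO libraries come from a single clone, and which part of Phc1 was removed, is not given in the sources used here.

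Libraries held 15226214 to 21893821 gene counts each. The ESC pair varied by 1.98% beyond counting noise, the NPC pair by 27.5% and the Phc1-KO pair by 18.1%, and Phc1-KO 1 and 2 had ratios of reads outside genes to reads in genes of 1.08 and 0.661. Phc1 stood at 459.1 and 459.9 counts scaled to library size (CPM) in ESC, 40.8 and 34.6 in NPC and 325.9 and 267.2 in Phc1-KO, so the libraries labelled Phc1-KO still held reads of the gene. Summed over 7 stem cell markers such as Pou5f1 and Nanog, ESC held 1936 to 1937 CPM, Phc1-KO 1967 to 2380 and NPC 6.83 to 7.13. Of the 7, 4 lay above ESC in Phc1-KO, 1 overlapped, and 2 lay below, Nanog and Esrrb. Nanog had 218.2 and 222.9 CPM in ESC and 136.3 and 111.9 in Phc1-KO, and Esrrb 261.2 and 261.3 against 179.1 and 123.3. Over 7 neural progenitor markers such as Nes and Fabp7, NPC held 1512 to 3365 CPM, ESC 204.6 to 215.4 and Phc1-KO 181.0 to 199.0. On both sums the Phc1-KO libraries lay near ESC and not near NPC, against their cell type entry. A single gene of the progenitor list, Pax6, stood with NPC, at 4.43 and 4.68 CPM in ESC, 20.9 and 16.9 in NPC and 21.4 and 20.7 in Phc1-KO.

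Chemokines are small secreted proteins that draw cells along a gradient by binding G protein-coupled receptors. Ccl2 and Ccl7 attract monocytes through Ccr2, Ccl11 attracts eosinophils through Ccr3, Ccl9 binds Ccr1, Cxcl1 attracts neutrophils through Cxcr2, and Cxcl12 holds stem and progenitor cells in their niches through Cxcr4. Il1rl1, also called ST2, encodes the receptor of the alarmin interleukin-33 and belongs to the interleukin-1 receptor family, which signals through Myd88 and Irak kinases to NF-kB. Olr1, also called LOX-1, encodes a C-type lectin-like receptor that takes up oxidized low-density lipoprotein. Transcription of many inflammatory chemokine genes is driven by NF-kB and AP-1, while Cxcl12 is better known as a constitutive product of stromal cells.

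RefSeq promoter windows (GRCm38.p6) were matched by symbol for 5 of the 8 genes, Ccl9, Cxcl1, Cxcl12, Il1rl1 and Olr1; the other genes are Ccl2, Ccl7 and Ccl11. The 250 bases before each annotated start were searched on both strands for the NF-kB consensus (by name), AP-1 (TGANTCA), the TATA box (TATAAA), the GC box (GGGCGG) and C/EBP (TTGCNNAA). The windows below are those of both genes with an NF-kB match, of both Il1rl1 starts and of Olr1, shown because they cover genes above and below ESC in each comparison. They read 5' to 3' on the gene's strand, and capitals mark the bases of any match.
Cxcl1, chr5:90890995-90891244, plus strand: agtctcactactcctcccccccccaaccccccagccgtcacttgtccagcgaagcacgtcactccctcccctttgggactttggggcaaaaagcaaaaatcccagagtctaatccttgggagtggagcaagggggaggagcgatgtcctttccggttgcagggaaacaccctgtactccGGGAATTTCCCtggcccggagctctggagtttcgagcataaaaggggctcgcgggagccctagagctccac
Ccl9, chr11:83578637-83578886, minus strand: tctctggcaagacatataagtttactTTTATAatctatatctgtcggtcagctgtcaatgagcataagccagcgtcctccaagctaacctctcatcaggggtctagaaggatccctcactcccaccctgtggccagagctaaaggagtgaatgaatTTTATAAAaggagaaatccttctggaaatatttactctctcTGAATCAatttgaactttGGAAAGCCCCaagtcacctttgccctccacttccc
Il1rl1 upstream start, chr1:40429320-40429569, plus strand: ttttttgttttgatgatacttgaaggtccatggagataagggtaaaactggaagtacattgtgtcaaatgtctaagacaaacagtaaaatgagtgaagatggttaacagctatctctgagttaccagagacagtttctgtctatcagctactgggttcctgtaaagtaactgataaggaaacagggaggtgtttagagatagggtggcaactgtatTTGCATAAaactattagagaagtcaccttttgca
Il1rl1 downstream start, chr1:40439379-40439628, plus strand: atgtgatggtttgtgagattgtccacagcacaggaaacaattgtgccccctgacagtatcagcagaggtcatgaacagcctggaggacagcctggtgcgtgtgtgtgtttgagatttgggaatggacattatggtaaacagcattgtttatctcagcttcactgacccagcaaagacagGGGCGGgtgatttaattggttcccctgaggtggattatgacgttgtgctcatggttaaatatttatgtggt
Olr1, chr6:129507166-129507415, minus strand: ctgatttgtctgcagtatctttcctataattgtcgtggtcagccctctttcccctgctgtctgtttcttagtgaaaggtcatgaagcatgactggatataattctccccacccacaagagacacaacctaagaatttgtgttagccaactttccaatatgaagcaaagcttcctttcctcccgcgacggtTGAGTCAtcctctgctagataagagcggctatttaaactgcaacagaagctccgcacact

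The NF-kB letters were present for Cxcl1, in overlapping matches on both strands 71 to 61 bases before the start, and for Ccl9, 35 to 26 bases before it. Of all 32851 windows of this length, 7.25% held that match. The AP-1 letters were present for Ccl9, 53 to 47 bases before the start, and for Olr1, 60 to 54 bases before it, against 6.75% of all windows. Ccl9 also held 3 TATA box matches, 2 of them overlapping on opposite strands (12.4% of all windows hold any). The Il1rl1 upstream window held a C/EBP match 34 to 27 bases before the start (9.56% of all windows), and its downstream window held a GC box match (32.7%). The Cxcl12 window held 5 GC box matches, the nearest pair overlapping by a base, with 64.4% G and C and 0.540 of the CpG dinucleotides its base content would give. The medians over all windows were 52.4% and 0.373. The Il1rl1 upstream window held no CpG and the Ccl9 window 0.175 of its share. A match is a string of letters, not a bound site, and Cxcl1 and Ccl9, which both hold the NF-kB letters, lay on opposite sides of ESC in both comparisons described next.

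In NPC, 5 of the 8 genes rose over ESC (Ccl2, Ccl7, Ccl11, Cxcl1 and Olr1) and Il1rl1 fell. Ccl11 and Olr1 passed the filter on low counts through groups other than ESC, which favoured a rise in advance. Their calls and adjusted p values therefore describe them and give no support. Changes were called with edgeR's quasi-likelihood test at an adjusted p under 0.05. By this rule 61.3% of the 17489 genes tested were called, 30.4% higher and 30.9% lower, so 6 called of 8 is near the background of this comparison. The libraries of the 2 groups did not overlap for any of the 8 genes, with 5 above and 3 below, but 85.2% of all genes had groups that did not overlap. The median log2 fold change of the 8 genes was 1.40, against -0.01 for all genes tested. These counts and this median include Ccl11 and Olr1 (8.33 and 4.24), so nothing is read from them. The other genes went both ways, at 2.73 (Ccl2), 1.63 (Cxcl1), 1.16 (Ccl7), -0.45 (Cxcl12), -2.05 (Ccl9) and -5.91 (Il1rl1).

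Between Phc1-KO and ESC, 6 genes had both Phc1-KO libraries above both ESC libraries (Ccl2, Ccl7, Ccl11, Cxcl1, Il1rl1 and Olr1) and 2 had both below (Ccl9 and Cxcl12). Of all genes, 66.7% had groups that did not overlap in this comparison. The median log2 difference was 2.51 for the 8 genes and 0.00067 for all genes, and the choice of the genes used this contrast, so nothing is read from it. Both comparisons share the ESC libraries. Between Phc1-KO and NPC, 4 genes had both Phc1-KO libraries above (Ccl2, Ccl7, Il1rl1 and Olr1), 3 had both below (Ccl11, Cxcl1 and Cxcl12), and Ccl9 overlapped, where 81.4% of all genes had groups that did not overlap.

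**Figure D1:**
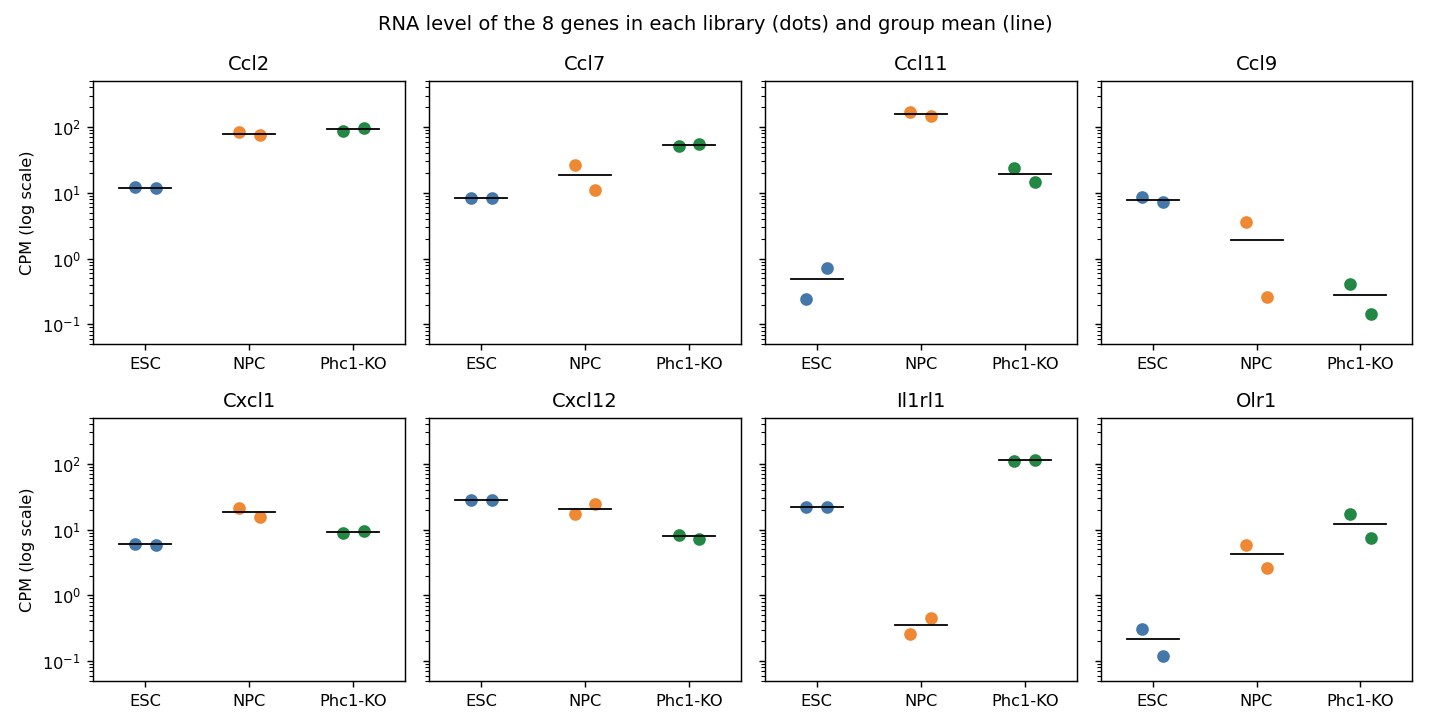
CPM (log scale) of each gene in each of the 6 libraries; dots are libraries and lines the mean of the 2 libraries of a group. Ccl2 stands at a like level in NPC and Phc1-KO, Ccl11 is highest in NPC (147.5 to 171.8 CPM), and Il1rl1 is highest in Phc1-KO (111.3 to 113.5 CPM) and under 1 CPM in NPC.

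Ccl2 (ENSMUSG00000035385), encoding the main monocyte attractant, lies at chr11:81849073-81850955 on the plus strand (mm9). It had 12.1 and 11.9 CPM in ESC, 84.1 and 75.2 CPM in NPC, and 88.4 and 96.2 CPM in Phc1-KO. Both NPC and both Phc1-KO libraries were far above ESC, and the spread within each pair was small beside that gap. The rise in NPC was 2.73 on the log2 scale (SE 0.15, 95% interval 2.38 to 3.07, adjusted p = 2e-05), which is 6.62-fold. In Phc1-KO the log2 difference from ESC was 2.94 (SE 0.15), and Phc1-KO lay above NPC by 0.21. The gene overlaps Gm17268 on the other strand, which had 0 counts in every library.

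Ccl7 (ENSMUSG00000035373), a neighbouring attractant of monocytes and other leukocytes, lies 8259 bases beyond Ccl2 at chr11:81859214-81861027 on the plus strand. It had 8.44 and 8.20 CPM in ESC, 26.3 and 10.9 in NPC, and 51.7 and 54.5 in Phc1-KO. The NPC libraries were unlike each other, NPC 2 being close to ESC, and the order ESC, NPC, Phc1-KO held with no overlap. The rise in NPC was 1.16 (SE 0.38, 95% interval 0.27 to 2.05, adjusted p = 0.0313), or 2.24-fold. That call rests on NPC 1: without it the log2 fold change was 0.39 (adjusted p = 0.0895), and without NPC 2 it was 1.67. It was also lost without any of the ESC or Phc1-KO libraries, where the adjusted p was 0.0847 to 0.110. The log2 difference between Phc1-KO and ESC was 2.67 (SE 0.38).

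Ccl11 (ENSMUSG00000020676), encoding eotaxin, lies 10298 bases beyond Ccl7 at chr11:81871325-81876457 on the plus strand. ESC held 4 and 12 counts, or 0.246 and 0.729 CPM. NPC held 171.8 and 147.5 CPM, and Phc1-KO 23.6 and 14.6 CPM. The 3 groups stood in separate ranges, with NPC at the top. The log2 fold change in NPC was 8.33 (SE 0.43, 95% interval 7.31 to 9.35, adjusted p = 1.86e-05). The Phc1-KO libraries lay above ESC by 5.27 (SE 0.42) and below NPC by a log2 difference of -3.06.

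Ccl9 (ENSMUSG00000019122), a macrophage-derived chemokine, lies on the minus strand at chr11:83386421-83392138, about 1510 kb beyond Ccl11. It was lower outside ESC, at 8.56 and 7.17 CPM in ESC, 3.55 and 0.259 in NPC, and 0.418 and 0.145 in Phc1-KO. NPC 1 held 54 counts and NPC 2 held 4, so the pair overlaps Phc1-KO, which held 8 and 3 counts. The NPC difference from ESC was -2.05 (SE 0.82, 95% interval -3.99 to -0.10) and did not pass the test (adjusted p = 0.0650). Without NPC 1 it was -4.88 (adjusted p = 4.81e-04) and without NPC 2 -1.14 (adjusted p = 0.0256), so each NPC library alone lay below ESC but at different distances. The log2 difference between Phc1-KO and ESC was -4.79 (SE 1.02).

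Cxcl1 (ENSMUSG00000029380), a neutrophil attractant and a well-known NF-kB target, lies at chr5:91320267-91322141 on the plus strand. It had 6.10 and 5.83 CPM in ESC, 21.5 and 15.5 in NPC, and 8.84 and 9.62 in Phc1-KO. The 3 groups did not overlap, and Phc1-KO stood closer to ESC than to NPC. The rise in NPC was 1.63 (SE 0.23, 95% interval 1.08 to 2.18, adjusted p = 9.48e-04), or 3.10-fold. The log2 difference between Phc1-KO and ESC was 0.63 (SE 0.23), the smallest in size among the 8 genes.

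Cxcl12 (ENSMUSG00000061353), encoding SDF-1, lies at chr6:117118553-117131385 on the plus strand. It had 27.8 and 28.3 CPM in ESC, 17.0 and 24.1 in NPC, and 8.37 and 7.30 in Phc1-KO. NPC lay between the other groups, and its libraries differed from each other by more than NPC 2 differed from ESC. The NPC difference was -0.45 (SE 0.21, 95% interval -0.95 to 0.05, adjusted p = 0.105) and did not pass. Without NPC 2 it was -0.72 and passed (adjusted p = 0.0143), and without NPC 1 it was -0.22. The log2 difference between Phc1-KO and ESC was -1.84 (SE 0.22), and between Phc1-KO and NPC -1.39.

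Il1rl1 (ENSMUSG00000026069), the interleukin-33 receptor gene, lies at chr1:40486415-40522260 on the plus strand. It had 22.1 and 21.9 CPM in ESC, 0.263 and 0.454 in NPC, where it held 4 and 7 counts, and 111.3 and 113.5 in Phc1-KO. The pairs were tight and the groups far apart, with Phc1-KO and NPC on opposite sides of ESC. In NPC the RNA fell by 5.91 on the log2 scale (SE 0.24, 95% interval -6.48 to -5.34, adjusted p = 8.18e-06), which is 60.1-fold lower. The log2 difference between Phc1-KO and ESC was 2.35 (SE 0.16), or 5.11-fold, and Phc1-KO lay above NPC by 8.26. It was the gene among the 8 that lay above ESC in one comparison and below it in the other.

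Olr1 (ENSMUSG00000030162), the oxidized lipoprotein receptor gene, lies at chr6:129435264-129457183 on the minus strand. ESC held 5 and 2 counts, or 0.308 and 0.122 CPM. NPC held 5.78 and 2.59 CPM, and Phc1-KO 17.2 and 7.44 CPM. The groups did not overlap, and the libraries of each pair differed by more than those of Ccl2 or Il1rl1. The rise in NPC was 4.24 (SE 0.76, 95% interval 2.44 to 6.04, adjusted p = 0.00263). The log2 difference between Phc1-KO and ESC was 5.79 (SE 0.74), the largest among the 8 genes, and it rests on 7 ESC counts.

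Levels were compared between the 8 genes per kilobase of exon (RPKM). In ESC the order was Ccl2 (10.6) and Ccl7 (10.4), whose libraries overlapped, then Cxcl1, Cxcl12, Il1rl1, Ccl9, Ccl11 and Olr1 (0.0602). In NPC it was Ccl11 (147.5), Ccl2 (70.0), Ccl7 (23.2) and Cxcl1 (19.4), which overlapped each other, Cxcl12 (2.52), Olr1 (1.17) and Ccl9 (0.625), which also overlapped, and Il1rl1 (0.0520). In Phc1-KO it was Ccl2 (81.1), Ccl7 (66.3), Ccl11 (17.7) and Il1rl1 (16.3), which overlapped, then Cxcl1, Olr1, Cxcl12 and Ccl9 (0.0925). Ccl2 was thus among the top 2 in every group, while Ccl11 moved from seventh in ESC to first in NPC and rank 3 in Phc1-KO.

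Distances between profiles of log2 CPM over the 6 libraries, each centred on its own mean, describe which genes were alike. By this distance, which counts the size of changes, the closest pair among the 8 genes was Ccl2 and Ccl7 (1.98), and the farthest was Ccl11 and Il1rl1 (14.7). By Pearson's r over the same 6 libraries, which ignores size, Ccl2 and Ccl7 (0.80) came after Ccl2 and Olr1 (0.95), Ccl11 and Cxcl1 (0.93) and Ccl7 and Olr1 (0.90). The closest genes outside the 8 were sought among tested genes with a symbol, leaving out predicted gene models. Plau (0.84) and Pax6 (0.85) were closest to Ccl2, Bnc1 (0.51) and Srxn1 (0.54) to Ccl7, and Dcn (1.78) and Nptx1 (1.99) to Ccl11. Calb2 (1.15) and Pdgfb (1.94) were closest to Ccl9, Cd302 (0.23) and H6pd (0.24) to Cxcl1, and SNORD113 (0.21) and Ifih1 (0.32) to Cxcl12. SNORD113 held at most 16 counts in a library and overlaps Rian on the same strand. Spink3 (0.86) and Zfp600 (1.07) were closest to Il1rl1, and Kcne4 (1.73) and Itga2 (2.14) to Olr1. Dcn, which encodes the matrix proteoglycan decorin, had 2.71 and 3.16 CPM in ESC, 554.5 and 746.0 in NPC, and 45.4 and 29.8 in Phc1-KO. Because Dcn was picked for its likeness to Ccl11, their shared order of groups follows from that choice.

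Neighbouring genes, of which not all are given, did not all follow. Rassf4, 494699 bases before Cxcl12, was lower in Phc1-KO, as Cxcl12 was (log2 -1.31, and -0.57 in NPC). Gm7292, 535106 bases away on the other side, changed little in Phc1-KO (-0.02, and 0.46 in NPC). The nearer genes Tmem72 and Rpl28-ps4 held at most 1 count in a library and were not tested. Mthfd2l, beyond Cxcl1, had a log2 difference of 0.79 in NPC and 0.0059 in Phc1-KO. Ccl12 and Ccl8, the next chemokine genes after Ccl11, had other patterns. Ccl12 had at most 2.56 CPM in a library and did not pass in either comparison (log2 0.71 in NPC, adjusted p = 0.414, and -0.87 in Phc1-KO, adjusted p = 0.508). Ccl8, a monocyte attractant, had 0.246 and 0.851 CPM in ESC, 0.263 and 0 in NPC, and 5.28 and 5.41 in Phc1-KO, where it rose by 3.27 (adjusted p = 0.0252). Ccl11, with the highest NPC level, thus lies in 1 cluster with Ccl8, whose NPC libraries held 4 and 0 counts.

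On one side of Ccl9, the neighbours Ccl6, Ccl3 and Ccl4 were lower outside ESC as well. On the other side, Gm11435 had 0.554 and 0.486 CPM in ESC, 0.985 and 0.973 in NPC and 0.418 and 0.242 in Phc1-KO and did not pass in either comparison (adjusted p = 0.0860 and 0.394), and Ccl5, a T cell attractant, held at most 7 counts in a library and was not tested. Ccl6, 9246 bases away, had 8.87 and 8.08 CPM in ESC, 1.05 and 0.389 in NPC and 1.31 and 0.966 in Phc1-KO. It fell by 3.55 in NPC (adjusted p = 4.84e-04) and fell by 2.89 in Phc1-KO (adjusted p = 0.0101). Ccl3 and Ccl4, both macrophage inflammatory proteins, held 27 and 24 counts in all in ESC, against 2 and 0 in NPC and 2 and 1 in Phc1-KO. Ccl3 was lower than ESC by a ratio of 12.7 in NPC (95% counting interval 3.18 to 109.8), and Ccl4 was at least 7.50-fold lower there, taking 3 counts in the NPC pair as the floor. Cxcl2, 10756 bases beyond Cxcl1 and a ligand of the same receptor, had 2.03 and 2.67 CPM in ESC, 0.0657 and 0.130 in NPC and 0.732 and 0.822 in Phc1-KO. It was lower in NPC by a ratio of 24.1 (95% counting interval 7.93 to 119.2, adjusted p = 2.89e-04), while Cxcl1 rose there.

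Of the receptor genes beside Il1rl1 on chromosome 1, Il1rl2 and Il1r1 rose in NPC, where Il1rl1 fell, and Il18rap was lower there as well. Il1rl2, the interleukin-36 receptor gene, had 0.370 and 0.608 CPM in ESC, 8.74 and 15.9 in NPC and 2.77 and 2.17 in Phc1-KO, rising by 4.63 in NPC (adjusted p = 1.91e-04) and by 2.32 in Phc1-KO (adjusted p = 0.0278). Il1r1, the receptor of interleukin-1 itself, rose in NPC by 2.39 (adjusted p = 0.00107), with a log2 difference of 1.19 in Phc1-KO that did not pass (adjusted p = 0.0730). Il18r1, which starts 137 bases after Il1rl1 ends, held at most 3 counts in any library. Il18rap, an interleukin-18 receptor subunit gene 49947 bases beyond Il1rl1, had 1.97 and 2.25 CPM in ESC, 0.0657 and 0.130 in NPC and 12.7 and 10.9 in Phc1-KO. It was lower in NPC by a ratio of 21.6 (95% counting interval 7.08 to 107.1) and rose by 2.48 in Phc1-KO (adjusted p = 0.00553), the order of groups seen for Il1rl1.

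**Figure D2:**
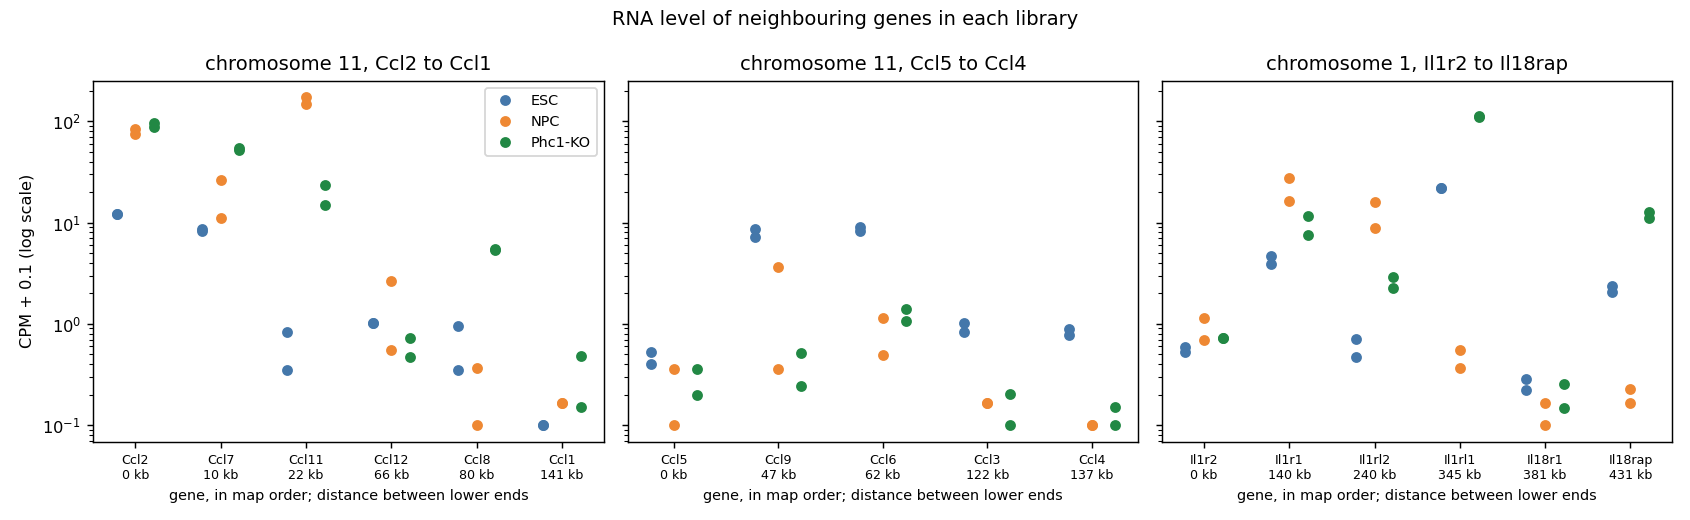
CPM + 0.1 (log scale) of genes in map order in 3 clusters, 1 dot per library, with the distance of each gene's lower end from that of the first gene. Ccl2, Ccl7 and Ccl11 lie above ESC in NPC and Phc1-KO, while Ccl9, Ccl6, Ccl3 and Ccl4 lie below it, and Il1rl1 and Il18rap are highest in Phc1-KO and lowest in NPC.

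Beside Olr1, Clec7a, the beta-glucan receptor gene, had at most 0.785 CPM in any library and fell by 1.53 in NPC (adjusted p = 0.0408). Clec1a had 0 and 0.182 CPM in ESC, 36.3 and 39.6 in NPC, and 0.942 and 0.387 in Phc1-KO. It was higher in NPC by a ratio of 413.6 (95% counting interval 141.2 to 2008), and its annotation overlaps Clec1b and Clec9a, so reads of these 3 genes cannot be fully told apart. Gabarapl1, an autophagy gene on the other side, had 63.8 to 77.8 CPM in all 6 libraries.

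Pathway genes outside the 8 were counted in 8 lists, of which 137 of 140 genes were in the tables and 99 were tested. In NPC 35 of the 99 rose and 32 fell, with a median log2 fold change of 0.06. Of all genes tested, 30.4% were called higher there, 30.9% lower and 61.3% in all, so these counts are near the background. The NPC counts of the single lists below have the same background. Ccr10, Ccl17, Il1rapl2, Il1rl2 and Clec1a, among others, passed the filter on low counts through groups other than ESC, which favoured a rise in advance. Ccl8 passed through Phc1-KO alone, and Ccl3 and Ccl4 passed through ESC alone, which favoured a fall. The calls and adjusted p values of such genes, also where given above, describe them and give no support. The list counts include them. In Phc1-KO 7 rose and 23 fell, with a median of -0.19, where 4.91% of all genes were called higher, 5.75% lower and 10.7% in all. The Phc1-KO counts depend on single libraries: the count that fell was 2 without ESC 1 and 2 without ESC 2, 11 without Phc1-KO 1 and 0 without Phc1-KO 2 (30 at an unadjusted p under 0.05 by the same test). The count that rose was 1, 0 (10 at an unadjusted p under 0.05), 2 and 1 in the same order. Of all calls in Phc1-KO against ESC, 46.0% were higher, and 35.8% with scaling by total count.

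Among 16 other chemokine genes tested, 3 rose and 6 fell in NPC, and 2 rose and 8 fell in Phc1-KO, with medians of -0.49 and -1.48. Ccl17, a T cell attractant, rose in NPC from 3 counts in both ESC libraries, by a ratio of 14.2 (95% counting interval 4.53 to 71.9). Cx3cl1, known for its role between neurons and microglia, was named outside the rule: it had 4.93 and 4.43 CPM in ESC, 32.3 and 31.7 in NPC and 1.99 and 1.21 in Phc1-KO, and it rose by 2.77 in NPC (adjusted p = 1.46e-04) and fell by 1.55 in Phc1-KO (adjusted p = 0.0196). The other gene that rose in NPC was Cxcl5, by 1.51 (adjusted p = 0.0100). In Phc1-KO the 2 that rose were Ccl8 and Cxcl14, the latter by 2.85 (adjusted p = 0.0339). Pf4, the platelet chemokine, fell by 4.26 in Phc1-KO (adjusted p = 0.00708), at 3.63 and 3.34 CPM in ESC and 0.105 and 0.242 in Phc1-KO. Cxcl11, an interferon-induced chemokine, fell in NPC by a ratio of 16.6 (95% counting interval 5.37 to 82.9) and fell by 3.61 in Phc1-KO (adjusted p = 0.00752), and it overlaps Art3 on the other strand.

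Receptors of these chemokines differed in level. Ccr2, Ccr3 and Cxcr2, which bind Ccl2 and Ccl7, Ccl11 and Cxcl1, were not tested and held at most 3 counts over the libraries of any group. Of 10 chemokine receptor genes tested, 2 rose and 4 fell in NPC. None rose and 2 fell in Phc1-KO by edgeR (0 and 4 at an unadjusted p under 0.05, 0 and 2 by DESeq2 and by limma-voom). Ccr1, a receptor of Ccl9, had 0.862 and 1.64 CPM in ESC, 0.131 and 0 in NPC and 2.09 and 1.26 in Phc1-KO, and fell in NPC by a ratio of 19.2 (95% counting interval 4.99 to 164.0). Ccr4 fell by 2.13 in NPC and Ccr10 rose there by 3.13 (adjusted p = 0.00684 and 0.00340), and Ccr9 fell by 2.19 in Phc1-KO (adjusted p = 0.0270). Ccr10 held 2 and 4 counts in ESC and passed the filter on low counts through NPC, so its call only describes it. Cxcr4, the receptor of Cxcl12, named outside the rule, had 2.65 and 2.43 CPM in ESC, 5.98 and 14.6 in NPC and 0.680 and 0.628 in Phc1-KO, rising by 2.02 in NPC (adjusted p = 0.00601), with a log2 difference of -1.95 in Phc1-KO that did not pass (adjusted p = 0.0555).

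Of 11 interleukin-1 family ligands and receptors tested besides Il1rl1, 7 rose and 3 fell in NPC (median 2.39), and 2 rose and 2 fell in Phc1-KO (median -0.41). Il33, the ligand of Il1rl1, had 9.30 and 9.78 CPM in ESC, 110.1 and 115.3 in NPC and 4.71 and 2.66 in Phc1-KO. It rose in NPC by 3.56 (adjusted p = 5.47e-05) and fell by 1.38 in Phc1-KO (adjusted p = 0.0232). The ligand and its receptor thus stood in opposite order over the 3 groups. Il1rn, encoding the interleukin-1 receptor antagonist, had 7.52 and 6.87 CPM in ESC, 0 in NPC, at least 73.4-fold lower, and 0.575 and 0.242 in Phc1-KO, where it fell by 4.13 (adjusted p = 0.00734). Sigirr, an inhibitory receptor of the family, fell by 6.10 in NPC (adjusted p = 3.75e-05), and its log2 difference in Phc1-KO was -0.41 (adjusted p = 0.318). Il1rapl2 rose in NPC from 1 count in ESC, by a ratio of 30.9 (95% counting interval 5.13 to 1264).

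Downstream of these receptors the changes were small. Of 12 genes of Toll and interleukin-1 receptor signalling, 5 rose in NPC (Irak1, Irak4, Tirap, Tab2 and Map3k7, by 0.33 to 1.05) and none fell (0 at an unadjusted p under 0.05, by DESeq2 or by limma-voom). In Phc1-KO none of the 12 passed in either direction by edgeR, by DESeq2, by limma-voom or at an unadjusted p under 0.05, and the median was 0.0015. Myd88, the adaptor of the family, had 6.53 and 5.35 CPM in ESC, 5.06 and 7.33 in NPC and 6.43 and 3.38 in Phc1-KO.

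Of 17 NF-kB factors and regulators, 3 rose and 7 fell in NPC. None rose and 4 fell in Phc1-KO (Nfkb2, Rel, Relb and Tnip1) by edgeR, against 0 higher by DESeq2 and limma-voom and 1 at an unadjusted p under 0.05. Rela, encoding p65, had 17.4 and 15.1 CPM in ESC, 28.5 and 27.2 in NPC and 20.5 and 15.03 in Phc1-KO, rising by 0.78 in NPC (adjusted p = 0.0137). Nfkb2 fell by 0.69 in NPC and fell by 1.40 in Phc1-KO (adjusted p = 0.00636 and 0.00576). Tnip1, an inhibitor of NF-kB, fell by 1.29 in NPC and fell by 1.501 in Phc1-KO (adjusted p = 0.00296 and 0.0145). Bcl3, an atypical IkB protein, fell by 2.37 in NPC (adjusted p = 8.80e-04). Traf1, Tnfaip3 and Nfkbib were also called lower there (log2 -2.65, -1.34 and -1.30). Traf1 lost its call in 8 alternative fits and Nfkbib in 1.

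Of 12 other inflammatory NF-kB target genes, 3 rose and 7 fell in NPC (median -1.24), and 2 rose and 2 fell in Phc1-KO (median 0.19). Icam1, an adhesion molecule, had 38.3 and 33.5 CPM in ESC, 6.31 and 5.32 in NPC and 32.1 and 36.7 in Phc1-KO, and fell by 2.62 in NPC (adjusted p = 5.96e-05). Il6 had 3.76 and 3.71 CPM in ESC and 1 count in NPC, a ratio of 114.4 (95% counting interval 20.1 to 4554), and 2.67 and 1.98 CPM in Phc1-KO. Tnf was at 0 in NPC, at least 19.4-fold lower, and fell by 4.14 in Phc1-KO (adjusted p = 0.00805). Sele rose in NPC by 3.19 (adjusted p = 0.00404). Csf1, the macrophage growth factor, rose in Phc1-KO by 1.73 (adjusted p = 0.0235), with 143.8 CPM in Phc1-KO 1 and 70.3 in Phc1-KO 2. Saa3, an acute-phase gene, rose there by 2.40 (adjusted p = 0.0465), and Nos2 fell by 3.04 there (adjusted p = 0.00891). Ccl2, Ccl7 and Cxcl1, which are themselves known NF-kB targets, thus rose in NPC while more of the other targets fell than rose. The Ccl7 call rests on NPC 1, and the chemokine genes Cxcl2, Ccl3 and Ccl4 of another list fell there. The difference between these sets was not tested.

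**Figure D3:**
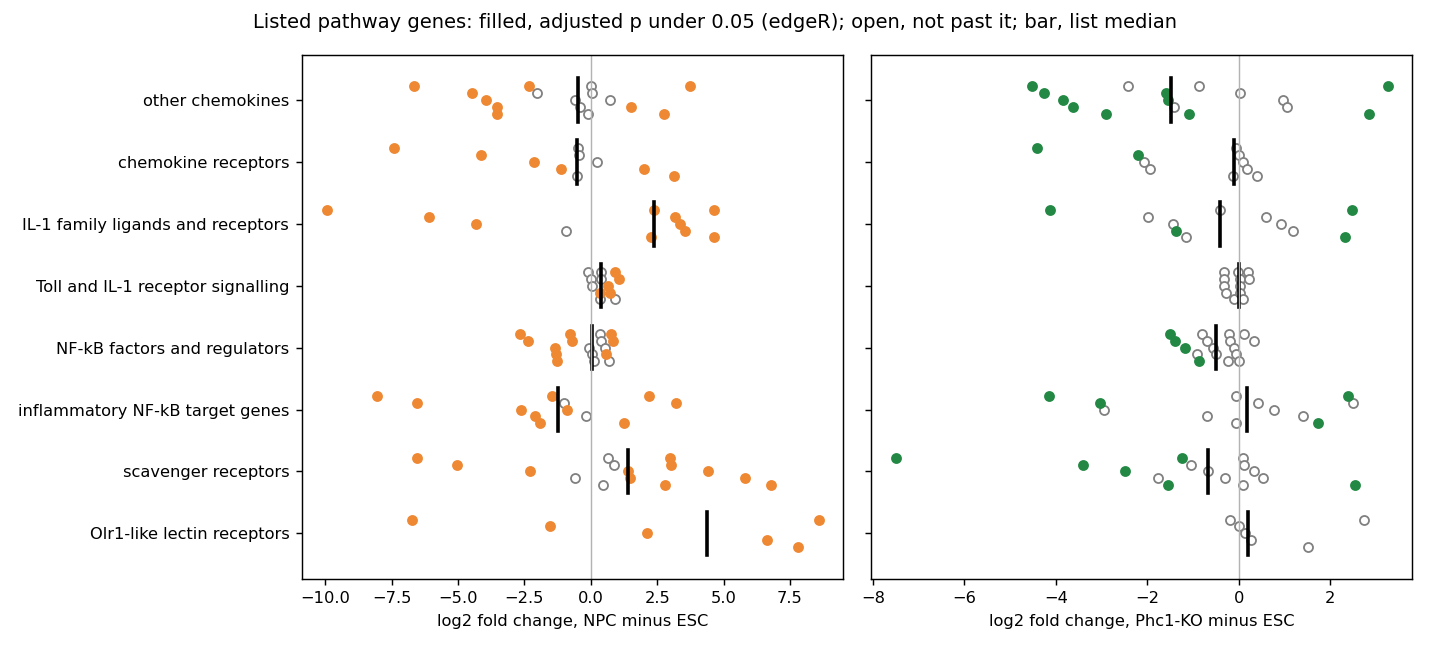
Log2 fold change of each tested gene of the 8 lists in NPC and in Phc1-KO against ESC; filled dots passed the test, open dots did not, and bars mark list medians. The interleukin-1 family has a median of 2.39 in NPC, signalling genes lie near 0 in Phc1-KO, and other chemokines have a median of -1.48 there.

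Of 15 scavenger receptor genes, the functional class of Olr1, 8 rose and 3 fell in NPC (median 1.41), and 1 rose and 5 fell in Phc1-KO (median -0.68). Msr1, the macrophage class A scavenger receptor, had 6.22 and 7.41 CPM in ESC, 0 and 0.130 in NPC and 0.889 and 0.387 in Phc1-KO. It fell by 3.42 in Phc1-KO (adjusted p = 0.0110) and was lower in NPC by a ratio of 104.5 (95% counting interval 28.6 to 868.4). Marco was at 0 in Phc1-KO, at least 17.5-fold lower. Cd36, another receptor of oxidized lipoprotein, rose in NPC by 3.02 (adjusted p = 4.59e-04) and fell by 2.49 in Phc1-KO (adjusted p = 0.0179). Megf10, an engulfment receptor, was the gene that rose in Phc1-KO, by 2.56 (adjusted p = 0.0126), and rose in NPC by 5.79 (adjusted p = 4.08e-05). Cd163 rose in NPC by a ratio of 117.3 (95% counting interval 39.8 to 571.9). Of 6 lectin-like receptor genes near Olr1, 4 rose and 2 fell in NPC. Clec1a, Clec1b and Clec9a were among those that rose, and Clec1a overlaps the others, so these rises may not be separate. Clec7a, among those that fell, lost its call in 8 alternative fits, and the number that fell was 0 to 2 over all alternatives. In Phc1-KO none passed in either direction by edgeR, against 1 higher and 0 lower both by DESeq2 and at an unadjusted p under 0.05, and 0 by limma-voom. Clec1b and Clec9a had at most 0.157 CPM in ESC and Phc1-KO libraries and 6.77 to 8.75 in NPC, and Clec12a was at 0 in NPC, at least 7.81-fold lower.

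Phc1-KO calls named above were lost when single libraries were left out. The calls of Il33, Il18rap, Cx3cl1, Nfkb2, Tnip1, Nos2, Cxcl11, Msr1 and Marco in Phc1-KO were lost without ESC 1, without ESC 2 and without Phc1-KO 2, and those of Ccl6, Ccl8, Cxcl14, Il1rl2, Rel, Relb, Cxcl2, Ccr9, Tnf, Saa3 and Cd36 without any of the 4 libraries compared. Those of Il1rn and Pf4 were lost without Phc1-KO 2, that of Csf1 without either ESC library, and that of Megf10 without ESC 2 or either Phc1-KO library. In NPC the calls of Rela, Nfkb2, Relb, Irak4, Tirap, Tab2, Map3k7, Cxcl5 and Clec7a were lost without either ESC library, and those of Map3k7 and Clec7a also without NPC 2; that of Clec7a was lost without either Phc1-KO library too.

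Markers of other cell types moved between the groups. In bulk RNA, fewer cells of a type and less RNA per cell cannot be told apart. Summed over 15 fibroblast markers, none at 0 in any library, ESC held 560.8 to 564.8 CPM, NPC 8294 to 13120 and Phc1-KO 1296 to 1499. The sum had the same order of groups as Ccl11, and the list holds Dcn, picked above for its likeness to Ccl11. In NPC 13 of the 15 lay above ESC in both libraries, Thy1 overlapped, and S100a4 was below, at 42.8 and 45.0 CPM in ESC, 4.79 and 7.59 in NPC and 326.1 and 367.7 in Phc1-KO. In Phc1-KO 10 lay above ESC, among them S100a4, Postn, Prrx1 and Pdgfra; Col3a1 and Fbln1 were below, and Col1a1, Pdgfrb and Mmp2 overlapped. Over 14 macrophage markers, ESC held 166.6 to 168.0 CPM, Phc1-KO 28.2 to 36.4 and NPC 9.20 to 10.8, with Emr1, Itgam, Tyrobp and the 3 C1q genes at 0 in both NPC libraries. All 14 lay below ESC in both groups, by unequal amounts. Lyz2 made up most of the ESC sum, at 100.3 and 102.0 CPM, against 12.3 and 6.09 in Phc1-KO, while Cd68 had 10.2 and 9.36 CPM in ESC and 8.63 and 9.28 in Phc1-KO, and neither Cd68 nor Itgam passed there (adjusted p = 0.735 and 0.179). Ccl9, Ccl6, Ccl3, Ccl4, Msr1, Marco and Tnf were likewise highest in ESC, but other genes of the same lists were not. Cd163 and Cd36 rose in NPC (log2 6.77 and 3.02), where 8 of the 15 scavenger receptor genes rose and 3 fell. Ccl8 was highest in Phc1-KO, at 5.28 and 5.41 CPM. The part of these cell types in the chemokine levels was not tested.

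For Il1rl1, which mast cells are known to express, 8 mast cell markers summed to 90.5 to 92.0 CPM in ESC, 16.0 to 26.9 in NPC and 24.2 to 33.6 in Phc1-KO. Kit, which stem cells also express, was the largest part, at 89.7 and 88.0 CPM in ESC, 26.0 and 15.3 in NPC and 28.5 and 18.5 in Phc1-KO. Hdc, encoding the enzyme that makes histamine, had the order of groups seen for Il1rl1, at 2.34 and 2.49 CPM in ESC, 0.0657 and 0.130 in NPC and 4.71 and 5.32 in Phc1-KO, where its log2 difference of 1.05 did not pass (adjusted p = 0.0534). Ms4a2, a subunit of the IgE receptor, held 9 and 5 counts in Phc1-KO and 0 in the other libraries. Cma1 held 10 and 9 counts in NPC and at most 2 in another library, and Cpa3 at most 2 in any. Fcer1a, Mcpt4 and Tpsb2 were at 0 in all 6 libraries. The part of mast cells in the Il1rl1 level was not tested. Over 9 endothelial markers, where Olr1 is also known, the sum was 68.6 to 71.8 CPM in ESC, 75.9 to 91.1 in NPC and 48.3 to 53.4 in Phc1-KO, where Olr1 was highest. These like sums hold different genes. Pecam1 had 40.6 and 36.5 CPM in ESC, 0.657 and 0.649 in NPC and 30.9 and 32.6 in Phc1-KO, and Emcn had 60.6 and 65.3 CPM in NPC and at most 3 counts in any other library. Of the 9, 2 lay above ESC in NPC (Emcn and Kdr) and 6 below, and 2 lay above it in Phc1-KO (Emcn and Esam) and 5 below. The part of endothelial cells in the Olr1 level was not tested.

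**Figure D4:**
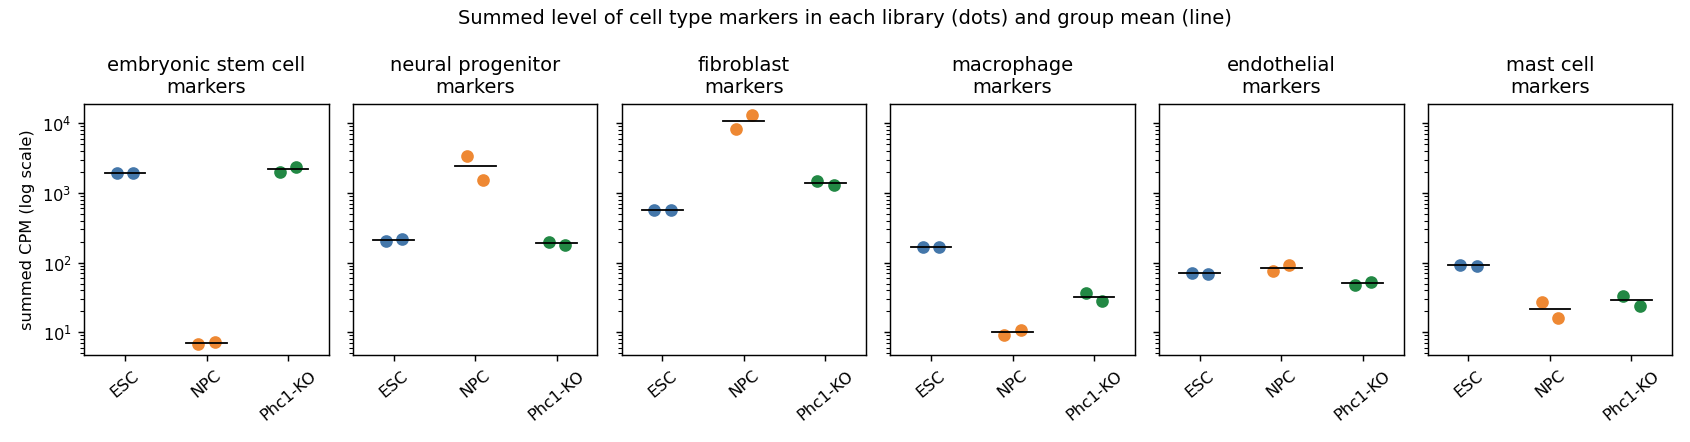
Summed CPM (log scale) of 6 marker lists in each library, with the group mean as a line. Phc1-KO lies with ESC on the stem cell and neural progenitor lists, above ESC on the fibroblast list and below it on the macrophage list.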

How the data were processed

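The authors deposited raw read counts for each Ensembl gene, made with STAR and HTSeq on mm9, per the submitters' processing notes. No version, annotation release or strand setting is given in the sources used here, so reads from overlapping genes on opposite strands cannot be told apart. The labels' protocols give rRNA-depleted total RNA and TruSeq libraries, and the study design gives 50-base single-end reads. The 5 closing tallies of reads in no gene were left out. GENCODE M1 (mm9) gave symbols and positions for 37205 of 37620 genes.

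Counts of all 6 libraries were fitted with edgeR 4.0.16 (quasi-likelihood F test with a term for each group, TMM scaling, filterByExpr with a minimum count of 10 and total of 15), leaving 3 residual degrees of freedom. P values were adjusted by Benjamini-Hochberg over 17489 genes, with a threshold of 0.05. SE is the log2 fold change divided by the square root of F. P values measure the spread between 2 libraries a group, estimated jointly over the 3 groups. The unequal spreads of the pairs are thus mixed, and the group not compared also enters each SE and p value. CPM used TMM-scaled library sizes, and RPKM divided them by exon length. Counting intervals (95%) and floors of 3 counts cover counting error only. The fit was tested on simulated data with the same spread in every group, so that test does not cover the unequal spread of these pairs.

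The members and lists were chosen with earlier results of these data known. Per list and comparison, text names all genes that passed where 5 or fewer did, otherwise the 4 largest changes, plus the first listed gene; neighbours were the 2 genes on each side, and like genes the 2 closest profiles. Exceptions (Cx3cl1, Cxcl5, Cxcl14, Cxcr4, Ccl4 beside Ccl9, and the receptors of the members) were named after their values were seen. Symbols with several IDs were left out. A gene that this rule named is not reported here. Protein sequences were not used here. Alternatives were other scalings, filters, tests (DESeq2 1.42.0, limma-voom of limma 3.58.1), fits of 2 groups, a replicate block, the ESC pair as 1 library and each library left out.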

Additional observations from a re-analysis of the deposited data

How the results depend on the processing

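Over the 16 alternatives no result of the 8 genes reversed. The number of the 8 that rose in NPC was 4 to 5; the number that fell was 2 with limma-voom, 2 with DESeq2 and 1 to 3 with a library left out, where Ccl9 or Cxcl12 was added. The replicate numbers do not pair the samples (correlation of deviations -0.02 to 0.02): with a replicate block 2 of the 8 genes fell in NPC, Ccl9 being added (log2 -2.46, adjusted p = 0.0178). Ccl7 lost its call in 8 alternatives, among them limma-voom (adjusted p = 0.0710) and fits of only 2 groups (0.0888). Pathway genes that rose in NPC were 23 with the ESC pair as 1 library and 23 to 41 with a library left out.

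In Phc1-KO against ESC, genes called higher were 62 with the ESC pair as 1 library, 1791 with only 2 groups, 1342 by DESeq2 and 32 to 1757 with a library left out, against 858; genes called lower were 83, 2108 with 2 groups and 57 to 1958, against 1006. Pathway genes called higher were 1, 13 and 11 and 0 to 13, against 7, and lower 2 with the ESC pair as 1 library and 0 to 31, against 23. The cause of these shifts was not tested. Upper-quartile scaling moved the median of all genes in NPC from -0.01 to -0.11. Log2 differences of the 8 genes in Phc1-KO kept their direction, from 0.54 to 0.69 for Cxcl1 and from 5.08 to 6.58 for Olr1. Depth limits Ccl11 and Olr1 in ESC, Il1rl1 in NPC and Ccl9 in Phc1-KO.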
